A study of Mus musculus with 8 samples.

Results

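The EGF family ligands and receptors were followed as 10 genes fixed by name, of the 56923 genes in the count files, through thymic epithelial cells (TECs) before and during culture. The members were the 6 ligand genes *Areg*, *Ereg*, *Hbegf*, *Tgfa*, *Btc* and *Epgn*, the 3 receptor genes *Egfr*, *Erbb2* and *Erbb3*, and *Errfi1*, which codes for an inhibitor of the receptors. TECs are the epithelial cells of the thymus that support the development of T cells. All cells came from wild-type mouse embryos at E16.5 and were sorted for EpCAM, a surface protein of epithelial cells. Bulk RNA was measured in 8 libraries, 2 in each of 4 groups. *In vivo* TECs were lysed directly after digestion of the thymus and sorting. TECs in 2D were grown for 3 days on laminin until they formed a confluent layer. Organoids were grown in drops of growth factor-reduced Matrigel, a gel of basement membrane proteins, and lysed on day 3 (D3) or day 7 (D7). The 3 cultured groups were kept in the same medium, in which FGF7 was the growth factor added and no EGF family ligand is among the named components. Cells were collected after sorting with thiazovivin, an inhibitor of ROCK, which also stayed in the organoid medium for the first days. The 2D group therefore differed from the organoids at least in the surface and the shape of the culture, and was taken at a single time. Whether thiazovivin was also added to the 2D cultures is not stated in the study's methods.

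Each ligand of this family is made as a protein that spans the cell membrane and is cut free by surface proteases of the ADAM family. The free ligand binds a receptor of the ErbB family on the same cell or a neighbour, and the receptors then pair and phosphorylate each other. AREG, EREG, HB-EGF, TGFα, BTC and EPGN bind EGFR, and some of them also bind ERBB4. ERBB2 has no known ligand and acts as a partner, while ERBB3 binds neuregulins and depends on its partner for kinase activity. The receptors feed the RAS-ERK and PI3K-AKT cascades, and ERRFI1 (also called MIG6) binds the receptor kinase and holds it inactive. In many epithelia the ligand genes and *Errfi1* are themselves induced by EGFR signalling and by injury, and FGF7, acting through its own receptor, feeds the same ERK cascade.

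Each library was a QuantSeq 3′ preparation, in which reads start near the poly(A) tail of a transcript. Total counts on genes lay between 5084715 and 7612532 per library, and between 16748 and 19943 genes were detected. Values are given as CPM, counts divided by library size and set on a common scale, with TMM factors that even out library composition, and 3 counts, taken as the floor of detection, came to between 0.372 and 0.593 CPM. The libraries are labelled as biological replicates. Tests were edgeR's quasi-likelihood tests over 14504 genes, adjusted by Benjamini-Hochberg and called at 0.05. The 11 genes that mark TECs did not move together. In 2D over *in vivo* 6 were higher, the keratin genes *Krt5*, *Krt8*, *Krt14* and *Krt18* with *Epcam* and *Cdh1*, and 5 lower (*Foxn1*, *Psmb11*, *Prss16*, *Dll4* and *Ctsl*). *Foxn1*, which codes for the transcription factor that sets TEC identity, was at 249 CPM *in vivo*, 6.69 CPM in 2D, 9.22 CPM at D3 and 72.9 CPM at D7 (group means), and *Psmb11*, the gene of a proteasome subunit of cortical TECs, at 540 CPM *in vivo*, 0.551 CPM in 2D, 0.743 CPM at D3 and 110 CPM at D7. Both were higher at D7 than in 2D and at D3, as were *Prss16* and *Dll4*. Of the 11, 7 were lower than *in vivo* at D3 and 8 at D7. Markers of thymocytes (13 genes) summed to 324 and 741 CPM in the *in vivo* libraries and to between 3.89 and 13.7 CPM in the 6 cultured libraries, with 11 of the 13 above the floor *in vivo*. Markers of mesenchyme (10 genes) summed to between 75.2 and 103 CPM *in vivo* and to between 40.1 and 46.4 CPM in 2D. The sums were 20.8 to 26.2 CPM at D3 and 73.4 to 84.6 CPM at D7. *Thy1*, which is also on the thymocyte list, made 49.8 and 21.3 CPM of the *in vivo* sums. *Dcn* made 53.6 and 51.0 CPM of the D7 sums. In D7 over *in vivo*, *Dcn* and *Lum* were higher, *Thy1* and *Col1a1* lower and 4 of the 8 tested not past the test. Myeloid markers (9 genes) summed to between 22.3 and 31.2 CPM *in vivo* and to at most 5.94 CPM in 2D and 0.845 CPM at D3. *Laptm5* made 24.7 and 12.4 CPM of the *in vivo* sums in replicates 1 and 2. Of the 9 genes, 3 were above the floor in both *in vivo* libraries, and *Csf1r* and *Itgam* had no count in either. At D7 the myeloid markers summed to between 12.3 and 12.7 CPM, mostly from *Lyz2*, which was at 12.2 and 10.3 CPM in replicates 1 and 2. *Csf1r*, *Itgam*, *Adgre1*, *Tyrobp* and *Cx3cr1* had no count at D7. Endothelial markers (8 genes) summed to between 5.05 and 9.17 CPM *in vivo*, with *Pecam1* at 3.66 and 5.22 CPM, and to at most 3.90 CPM in a cultured library. *Cdh5* and *Tie1* of that list had no count in any library. The part of these other cells in the results was not tested. In bulk RNA, fewer cells of a type and less RNA per cell cannot be told apart.

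The genes of 4 of the ligands lie together on chromosome 5. Stretches upstream of 3 members are shown as examples of matches to motifs of growth factor-responsive promoters. *Tgfa*, *Erbb3* and *Epgn* also held matches, which are given by position only. *Epgn*, *Ereg*, *Areg* and *Btc* occupy a span of 375.561 kb in the build GRCm39 with no other protein-coding gene between them. *Areg* is at chr5:91287451-91296291 on the plus strand, *Ereg* at chr5:91222157-91241505 on the plus strand and *Errfi1* on chromosome 4, also on the plus strand. Each line below gives the 250 bases before the start of the canonical transcript, 5′ to 3′, at chr5:91287201-91287450 for *Areg*, chr5:91221907-91222156 for *Ereg* and chr4:150939272-150939521 for *Errfi1*. The *Errfi1* gene is annotated at chr4:150938376-150955402, from a start further upstream, so its stretch lies inside the annotated gene. Capitals mark the cAMP response element TGACGTCA, the AP-1-like pattern TGANTCA, in which N is any base, and the TATA box TATAAA. 

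Areg: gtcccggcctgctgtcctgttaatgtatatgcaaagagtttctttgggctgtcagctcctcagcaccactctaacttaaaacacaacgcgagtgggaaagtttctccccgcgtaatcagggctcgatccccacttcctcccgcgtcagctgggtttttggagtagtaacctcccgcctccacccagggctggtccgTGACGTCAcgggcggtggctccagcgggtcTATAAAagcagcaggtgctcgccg

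Errfi1: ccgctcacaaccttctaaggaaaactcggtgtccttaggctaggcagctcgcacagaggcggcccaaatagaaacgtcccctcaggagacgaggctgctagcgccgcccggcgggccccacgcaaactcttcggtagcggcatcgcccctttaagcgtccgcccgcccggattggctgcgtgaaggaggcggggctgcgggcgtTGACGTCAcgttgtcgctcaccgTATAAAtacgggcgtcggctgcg

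Ereg: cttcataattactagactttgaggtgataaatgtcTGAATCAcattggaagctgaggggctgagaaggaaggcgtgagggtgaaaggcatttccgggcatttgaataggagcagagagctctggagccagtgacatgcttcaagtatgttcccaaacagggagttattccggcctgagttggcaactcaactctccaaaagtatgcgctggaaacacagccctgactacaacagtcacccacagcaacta

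The *Areg* and *Errfi1* stretches had the same arrangement, with the cAMP response element 54 and 46 bases before the start and the TATA box 24 and 23 bases before it. The *Errfi1* stretch also holds part of an antisense long noncoding RNA gene, *1700045H11Rik*, which had no count in any library. Likewise the *Ereg* stretch holds part of another such gene, *Gm19610*. As with *Errfi1*, the stretches before *Erbb3* and *Hbegf* lie inside the annotated gene. A match to the AP-1-like pattern began 215 bases before the start in *Ereg* (TGAATCA), 117 in *Tgfa* (TGAGTCA) and 78 in *Erbb3* (TGACTCA). *Epgn* had a TATA box 33 bases before its start. The same letters were searched for on both strands in the 250 bases before 21757 protein-coding genes. The AP-1-like pattern, with any base at N, was present in 6.18% of these stretches and the cAMP response element in 1.7%. The TATA box was present in 11.9% and the CArG box, a site of serum response factor that none of the members held, in 1.4%. The element and the TATA box together, a pair looked for after it was seen in *Areg* and *Errfi1*, were present in 35 stretches, or 0.161%. The stretches before *Btc*, *Egfr*, *Erbb2* and *Hbegf* held none of the 4 sites. A match is a description of the sequence and says nothing on binding.

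In 2D, all 9 members that could be tested were higher than in *in vivo* TECs. *Epgn*, the only member not tested, was near the floor throughout. Of all genes tested, 19.9% were higher and 21.7% lower in this comparison, and the median log2 fold change was 3.07 over the 9 members and −0.06 over all genes. *Areg* and *Ereg* passed the filter of 1 CPM in 3 libraries only through both 2D libraries and 1 other library each, so their difference follows in part from the filter. In D3 organoids 2 members were higher (*Tgfa* and *Erbb3*), 2 lower (*Egfr* and *Errfi1*) and 5 not past the test, beside 14.1% higher and 14.0% lower of all genes. In D7 organoids 3 were higher (*Btc*, *Erbb2* and *Erbb3*), 1 lower (*Errfi1*) and 5 not past the test, beside 18.0% higher and 16.8% lower of all genes. The median over the 9 members was 0.27 at D3 and 0.41 at D7, beside −0.01 and 0.01 over all genes. These 3 comparisons share the *in vivo* libraries.

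**Figure D1:**
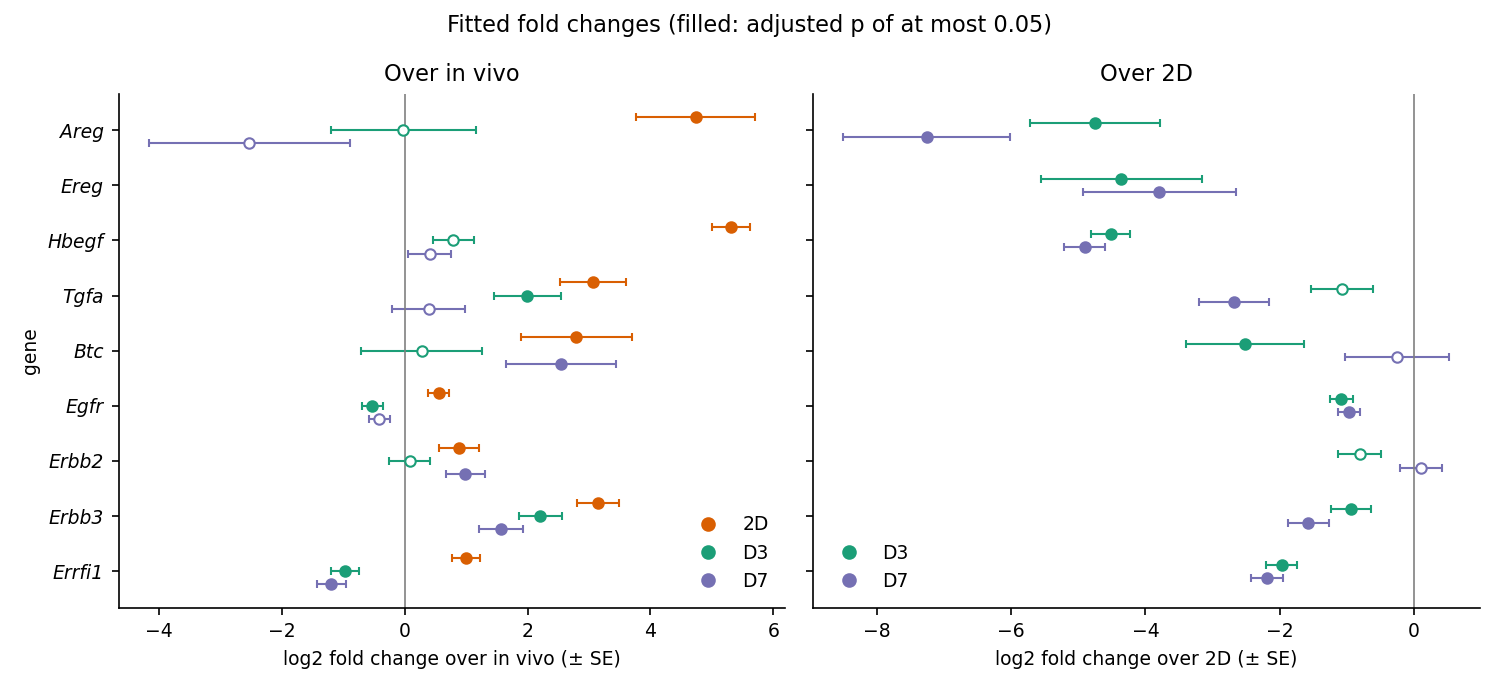
Fitted log2 fold change with its standard error (horizontal axis) of each tested member (vertical axis), for 2D TECs and D3 and D7 organoids over in vivo TECs (left) and for both organoid groups over 2D TECs (right), 2 libraries in each group. Filled points passed an adjusted p of 0.05. Ereg is not drawn on the left because both in vivo libraries had no count. All 2D points on the left lie above 0, and on the right only Erbb2 at D7 lies above 0, with an open point.

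*Hbegf*, on chromosome 18, codes for heparin-binding EGF-like growth factor, a ligand that stays attached to the cell surface until it is cut and is typical of wounded epithelium. It was at 3.13 and 7.62 CPM in the *in vivo* libraries, 237 and 204 CPM in 2D, 9.80 and 9.37 CPM at D3 and 9.18 and 4.94 CPM at D7. The 2D libraries stood far above the other 6, among which both D3 libraries were above both *in vivo* libraries and the D7 and *in vivo* libraries overlapped. The difference of 2D from *in vivo* was 5.31 ± 0.31 (log2 fold change ± SE, adjusted p = 4.6e-10, edgeR), or 39.8-fold. Against 2D the log2 fold change was −4.52 ± 0.29 at D3 (adjusted p = 2.6e-09) and −4.91 ± 0.30 at D7 (adjusted p = 1.0e-09). The values of the organoids over *in vivo* did not pass the test, with log2 fold changes of 0.79 ± 0.34 at D3 (adjusted p = 0.093) and 0.41 ± 0.35 at D7 (adjusted p = 0.40). Without *in vivo* replicate 2, the higher of that group, both passed, at 1.61 and 1.22 with adjusted p-values of 0.0079 and 0.033, and without a filter on low counts the D3 value passed (0.89, adjusted p = 0.012).

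*Areg* codes for amphiregulin, a ligand made by epithelia and by some immune cells during repair. It was counted 0 and 7 times in the *in vivo* libraries, 94 and 65 times in 2D, 0 and 7 times at D3 and 1 and 0 times at D7. In CPM the 2D libraries were at 17.1 and 12.1, and no other library was above 0.987. The 2D group was higher than *in vivo* by 4.74 ± 0.97 on the log2 scale (adjusted p = 0.00079, edgeR). The log2 fold change of D3 over 2D was −4.76 ± 0.97 (adjusted p = 0.00086). At D7 it was also lower than in 2D (adjusted p = 0.00015), and 159 counts against 1 count gave a ratio of 192 with an exact 95% interval of 33.9 to 7615, which covers counting error only. With DESeq2's Wald test the adjusted p was 0.074 for 2D over *in vivo* and 0.079 for D3 over 2D. Leaving out either 2D library or D3 replicate 2 took *Areg* below the filter, so its call could not be retested there.

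*Ereg* codes for epiregulin, a ligand of EGFR and ERBB4. It had no count in either *in vivo* library, 46 and 41 counts in 2D, 0 and 5 at D3 and 8 and 0 at D7. Both 2D libraries, at 8.37 and 7.61 CPM, were above all others, of which the highest was D7 replicate 1 at 0.992 CPM. The 2D group was at least 16.9-fold higher than *in vivo* against a floor of 3 counts per library (adjusted p = 0.0011, edgeR). Over 2D the log2 fold change was −4.36 ± 1.20 at D3 and −3.79 ± 1.14 at D7, with adjusted p-values of 0.0088 and 0.013. Both of these calls were lost with DESeq2's Wald test (adjusted p = 0.24 and 0.28), the first also without D3 replicate 1 (log2 fold change −3.48, adjusted p = 0.059) and the second without D7 replicate 2 (−2.98, adjusted p = 0.11). Without either 2D library or D7 replicate 1, *Ereg* was below the filter and was not fitted. The antisense gene *Gm19610* overlaps all of the annotated *Ereg* gene, the 3′ end included, and held at most 5 counts in a library. The use of strand in the authors' counting is not given in the sources used here.

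*Tgfa*, on chromosome 6, codes for transforming growth factor alpha, a ligand made widely by epithelial cells for themselves. It was at 2.96 and 0.846 CPM *in vivo*, 14.7 and 16.5 CPM in 2D, 8.62 and 6.29 CPM at D3 and 1.98 and 2.97 CPM at D7. The 4 libraries taken after 3 days of culture, flat or in gel, were above both *in vivo* and both D7 libraries. Over *in vivo*, the log2 fold change was 3.07 ± 0.54 in 2D (adjusted p = 0.00018, edgeR), 2.00 ± 0.54 at D3 (adjusted p = 0.010) and 0.39 ± 0.59 at D7 (adjusted p = 0.65). From D3 to D7 it fell by 1.61 ± 0.52 (adjusted p = 0.037), the only member past the test between the organoid days. That call was lost when any library of the cultured groups was left out, with adjusted p-values between 0.051 and 0.22, and the D3 call over *in vivo* was lost without *in vivo* replicate 2 or D3 replicate 1. The difference of D3 from 2D, −1.07 ± 0.47, did not pass (adjusted p = 0.080). It did pass with limma-voom (−1.10, adjusted p = 0.016) and with only the 4 libraries compared (−1.03, adjusted p = 0.015).

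*Btc* codes for betacellulin, a ligand of EGFR and ERBB4. It was counted 0 and 12 times *in vivo*, 46 and 23 times in 2D, 8 and 6 times at D3 and 34 and 33 times at D7. In CPM, the 2D libraries at 8.37 and 4.27 overlapped with the D7 libraries at 4.22 and 6.52, and every library of both groups was above the *in vivo* and D3 libraries, which reached 1.69. Over *in vivo* the log2 fold change was 2.80 ± 0.90 in 2D (adjusted p = 0.019, edgeR) and 2.55 ± 0.90 at D7 (adjusted p = 0.035). D3 over 2D gave −2.52 ± 0.88 (adjusted p = 0.032), and the 2.28 ± 0.88 by which D7 exceeded D3 did not pass (adjusted p = 0.077). D7 over D3 did pass without a filter on low counts (2.22, adjusted p = 0.020) and with only the 4 libraries compared (2.23, adjusted p = 0.019). These calls rest on few counts. The 2D call over *in vivo* was lost without *in vivo* replicate 1 (1.89) or 2D replicate 1 (2.25), and the D7 call without *in vivo* replicate 1 (1.63), 2D replicate 1 or either D7 library. The D7 call was also lost with only the 4 libraries compared (2.55, adjusted p = 0.063). The call of D3 against 2D was lost with library size alone and without 2D replicate 1 or any organoid library, with adjusted p-values of up to 0.21.

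*Epgn*, which codes for epigen, a ligand of low affinity for EGFR, had 0 and 3 counts *in vivo*, 2 and 7 in 2D, none at D3 and 4 and 0 at D7. Only 2D replicate 2, at 1.30 CPM, was above 1 CPM, and no difference was detectable at this depth. Without a filter on low counts, 2D over *in vivo* gave a log2 fold change of 1.87 ± 2.24 (adjusted p = 0.66).

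**Figure D2:**
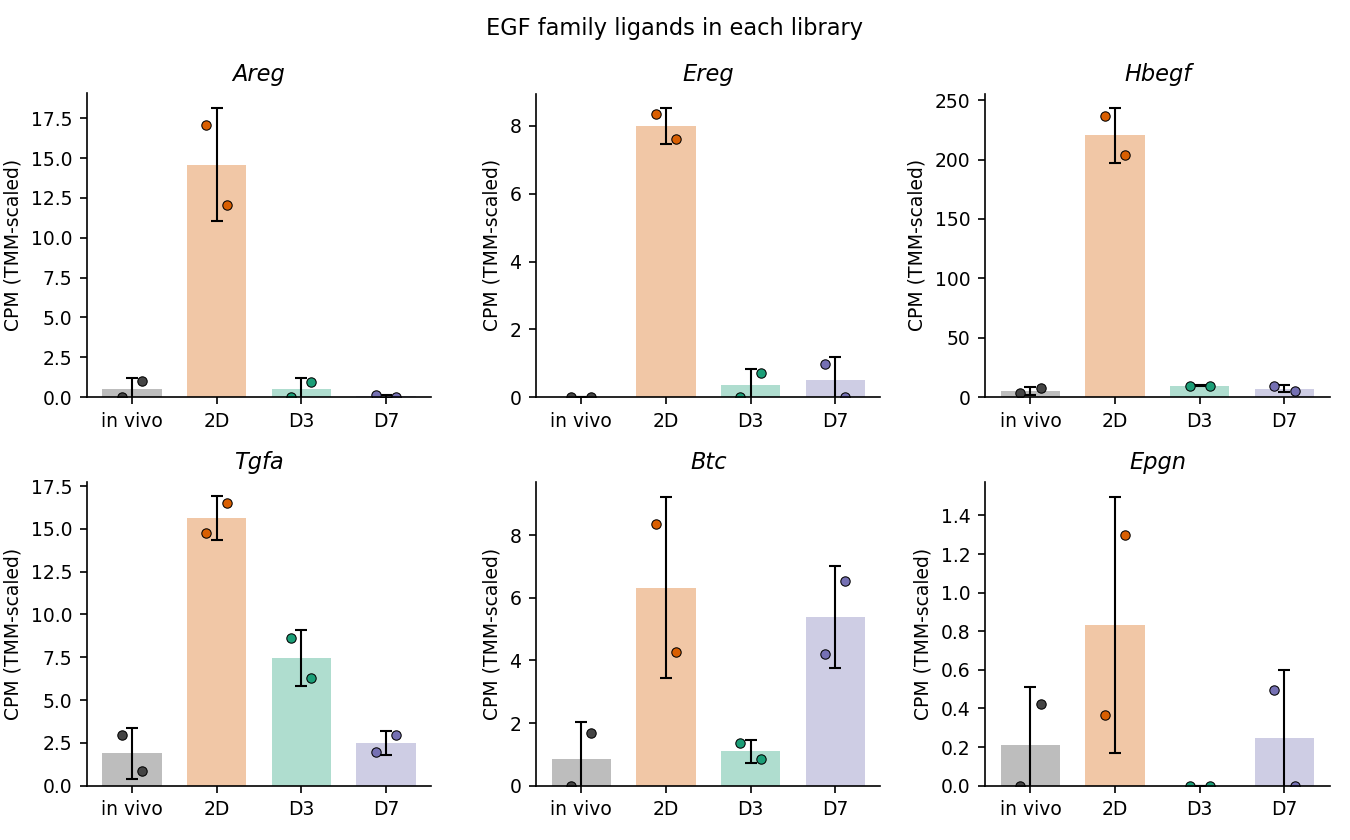
CPM scaled by TMM (vertical axis, a scale of its own in each panel) of the 6 ligand genes in in vivo TECs, 2D TECs and D3 and D7 organoids. Bars are means, error bars are the SD of 2 libraries and points are single libraries. For Areg, Ereg and Hbegf only the 2D points stand away from 0 on their scale, Tgfa is also raised at D3, and Btc has its 2D and D7 points at the same height.

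The genes around the chromosome 5 ligands did not share 1 pattern. Within 250 kb of the span on either side there are 6 further protein-coding genes. *Cxcl2*, a chemokine that attracts neutrophils, was higher in 2D than *in vivo* by 3.42 (log2 fold change, adjusted p = 0.0040, edgeR), with group means of 0.987 CPM *in vivo*, 11.3 CPM in 2D, 2.02 CPM at D3 and 1.67 CPM at D7. *Parm1*, on the other side of *Btc*, gave −2.23 (adjusted p = 2.5e-08). *Mthfd2l*, the nearest neighbour of *Epgn*, gave 0.68 (adjusted p = 0.096) and *Cxcl1* −0.19 (adjusted p = 0.84). *Cxcl15* was at 0.945 CPM *in vivo*, 0.182 CPM in 2D, 2.57 CPM at D3 and 14.5 CPM at D7. *Cxcl3*, with at most 12 counts in a library, was not tested and had its highest mean in 2D, at 1.56 CPM. Within the cluster, *Btc* is separated from *Areg* by 208.828 kb and the other gaps are 39.082 and 45.945 kb. *Btc* was also the only one of the 3 tested genes of the cluster past the test over *in vivo* at D7.

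**Figure D3:**
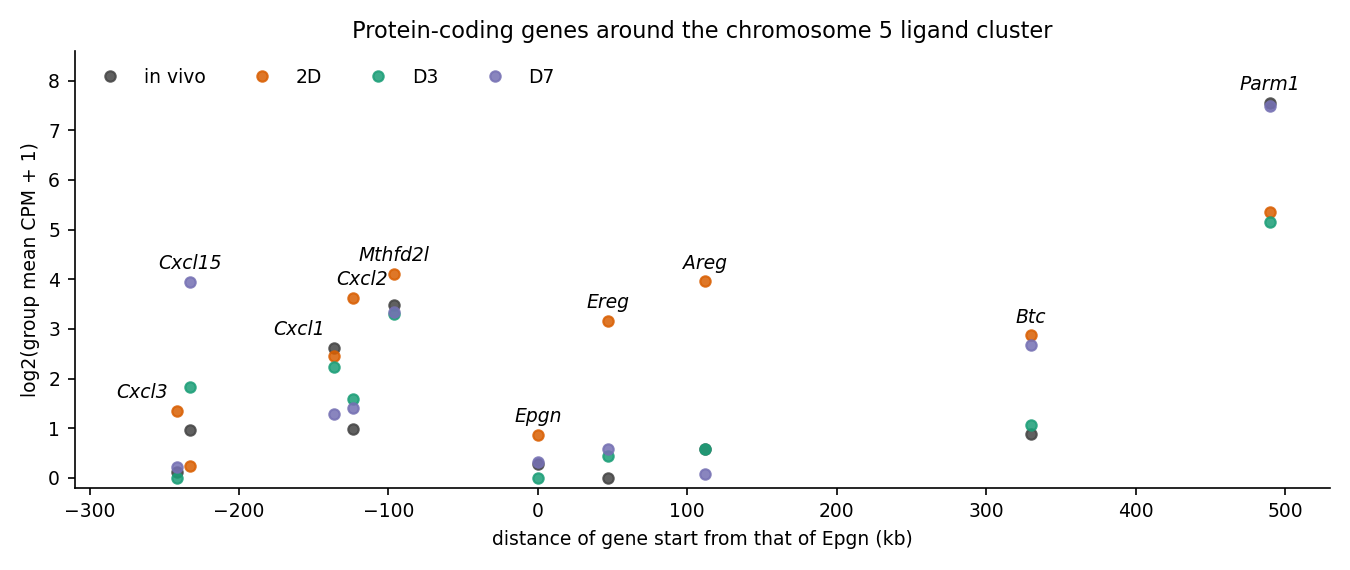
Group means (vertical axis, log2 of CPM plus 1) of the 10 protein-coding genes in and around the ligand cluster on chromosome 5, placed by the distance in kb of each gene's annotated start from that of Epgn (horizontal axis). Ereg, Areg, Epgn, Cxcl2, Cxcl3 and Mthfd2l have their 2D mean above the other 3 groups, Btc has 2D and D7 together, and Parm1 has in vivo and D7 together.

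Among the receptors, 2D over *in vivo* gave the largest fold change for *Erbb3* and the smallest for *Egfr*. *Egfr*, on chromosome 11, codes for the receptor that all 6 ligands share. It was at 82.5 and 89.4 CPM *in vivo*, 113 and 139 CPM in 2D, 57.5 and 61.7 CPM at D3 and 67.6 and 61.3 CPM at D7. All libraries thus held *Egfr* well above the floor, with the 2D pair above the *in vivo* pair and the organoids below both. It was 1.47-fold higher in 2D than *in vivo* (log2 fold change 0.55 ± 0.17, adjusted p = 0.014, edgeR) and 1.44-fold lower at D3 (−0.53 ± 0.17, adjusted p = 0.028). The D7 value of −0.41 ± 0.17 did not pass (adjusted p = 0.070), nor did D7 against D3 (adjusted p = 0.69). With library size in place of TMM the 2D value became 0.37 (adjusted p = 0.099) and the D3 value −0.45 (adjusted p = 0.067). That scaling moved the median of all genes in 2D over *in vivo* from −0.06 to −0.24, so that *Egfr* stood 0.61 above that median under either scaling. The 2D call was also lost without *in vivo* replicate 1 (0.49) or 2D replicate 2 (0.41), and the D3 call without *in vivo* replicate 2 or either D3 library. The D3 call was lost as well without a filter on low counts (−0.43, adjusted p = 0.12) and without ribosomal RNA genes (−0.45, adjusted p = 0.059). Against 2D, *Egfr* was 2.12-fold lower at D3 (adjusted p = 7.9e-05) and 1.95-fold lower at D7 (adjusted p = 0.00020), and both calls held under all 17 alternatives. The antisense genes *Eldr*, which spans the 3′ end, and *Egfros* held at most 55 and 92 counts in a library.

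*Erbb3*, on chromosome 10, was at 4.0 and 3.39 CPM *in vivo*, 36.9 and 28.4 CPM in 2D, 12.5 and 21.4 CPM at D3 and 12.3 and 9.49 CPM at D7. Every cultured library was above both *in vivo* libraries, and both 2D libraries were above all organoids. The log2 fold change over *in vivo* was 3.14 ± 0.35 in 2D (adjusted p = 1.1e-06, edgeR), 2.21 ± 0.35 at D3 (adjusted p = 0.00011) and 1.57 ± 0.36 at D7 (adjusted p = 0.0025), and *Erbb3* was the only member higher in all 3 cultures. These 3 calls held under all 17 alternatives. D7 was 2.97-fold lower than 2D (adjusted p = 0.00050). D3 was 1.92-fold lower than 2D (adjusted p = 0.019), a call lost with library size alone (−0.67, adjusted p = 0.096), without 2D replicate 1 (−0.74, adjusted p = 0.16) and without D3 replicate 1 (−0.61, adjusted p = 0.18).

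*Erbb2*, on chromosome 11, was at 17.2 and 7.76 CPM *in vivo*, 25.5 and 20.2 CPM in 2D, 13 and 13.1 CPM at D3 and 21.6 and 27.7 CPM at D7. The D3 libraries lay between the *in vivo* pair, while 2D and D7 were above both groups. It was higher than *in vivo* in 2D by 0.89 ± 0.32 (adjusted p = 0.037, edgeR) and at D7 by 0.99 ± 0.32 (adjusted p = 0.025) on the log2 scale. Both rested on *in vivo* replicate 2, without which they were 0.41 (adjusted p = 0.31) and 0.50 (adjusted p = 0.22). The 2D call was lost under 8 of the 17 alternatives, among them leaving out either 2D library (adjusted p = 0.21 and 0.058), and the D7 call under 3, among them leaving out D7 replicate 2 (0.81, adjusted p = 0.17). D7 over D3 (0.91 ± 0.32, adjusted p = 0.054) and D3 over 2D (−0.80 ± 0.32, adjusted p = 0.058) did not pass, but did under 7 and 6 of the alternatives, among them limma-voom (adjusted p = 0.039 and 0.047) and leaving out either *in vivo* library. *Mien1*, a protein-coding gene on the other strand, shares 9 bases with the 3′ end of *Erbb2* and held at most 344 counts.

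*Errfi1*, the feedback inhibitor, was at 35.7 and 40.1 CPM *in vivo*, 72.4 and 79.1 CPM in 2D, 15.7 and 22.8 CPM at D3 and 19.1 and 13.6 CPM at D7. The groups formed 3 levels with no overlap, 2D above *in vivo* and *in vivo* above both organoid days. It was 2.0-fold higher in 2D than *in vivo* (log2 fold change 1.0 ± 0.22, adjusted p = 0.0016, edgeR). It was 1.96-fold lower at D3 (adjusted p = 0.0045) and 2.29-fold lower at D7 (adjusted p = 0.00083). The D3 call was lost without D3 replicate 1 (−0.73, adjusted p = 0.069). Against 2D it was 3.91-fold lower at D3 (adjusted p = 3.4e-06) and 4.57-fold lower at D7 (adjusted p = 1.0e-06), and D3 and D7 did not differ past the test (adjusted p = 0.57).

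**Figure D4:**
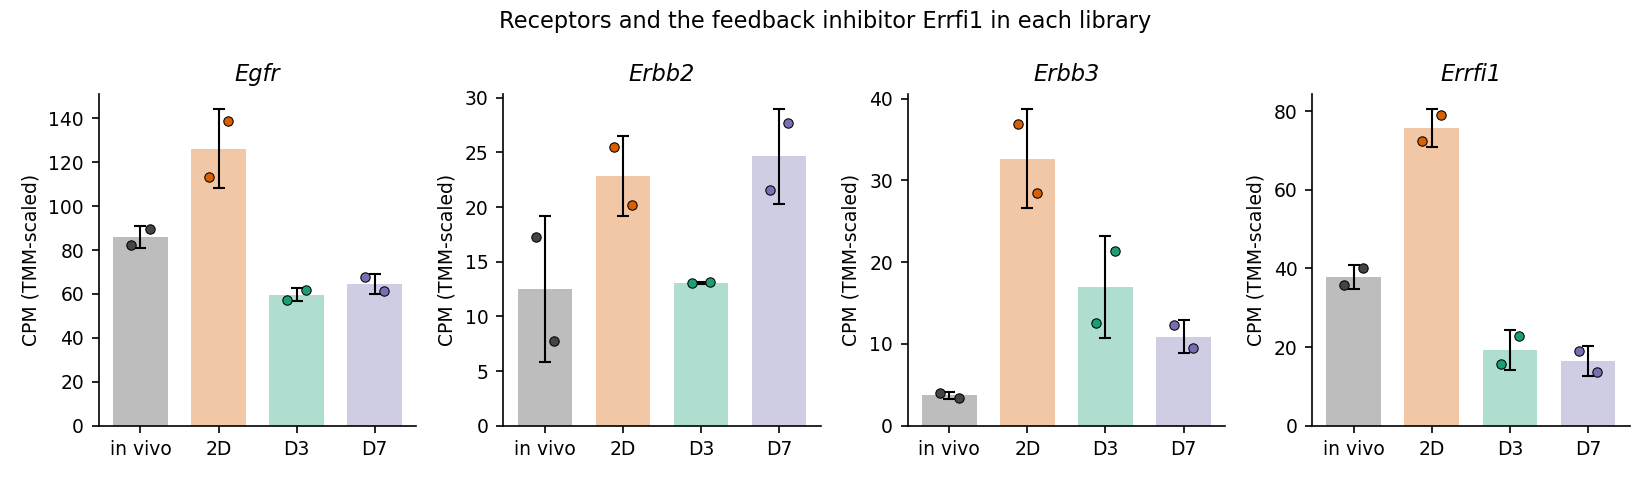
CPM scaled by TMM (vertical axis, a scale of its own in each panel) of 3 receptor genes and Errfi1 in in vivo TECs, 2D TECs and D3 and D7 organoids. Bars are means, error bars are the SD of 2 libraries and points are single libraries. Egfr and Errfi1 are highest in 2D and lowest in both organoid groups, while Erbb3 is lowest in vivo and Erbb2 is high in 2D and at D7.

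Between organoids and 2D, 7 members were lower and none higher at each day. At D3 these were *Areg*, *Ereg*, *Hbegf*, *Btc*, *Egfr*, *Erbb3* and *Errfi1*, and at D7 *Tgfa* took the place of *Btc*. *Areg* and *Ereg* passed the filter mainly through the 2D libraries, so their place in these counts and medians follows in part from the filter. Of all genes, 19.3% were higher and 19.1% lower at D3 than in 2D, and 24.4% higher and 21.1% lower at D7. The median over the 9 members was −1.97 at D3 and −2.19 at D7, beside 0.03 and 0.10 over all genes. These comparisons share the 2D libraries with each other and with 2D over *in vivo*. Between the organoid days, 0 members were higher and 1 lower, beside 10.9% higher and 9.91% lower of all genes.

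Over the 8 libraries the members fell into patterns that are given as descriptions, since the libraries form 4 groups and each correlation reads mainly the group means. On the log2(CPM + 1) scale, Pearson's r was 0.97 for *Areg* with *Hbegf* and for *Ereg* with *Hbegf*, and 0.95 for *Areg* with *Ereg*. It was 0.97 for *Egfr* with *Errfi1*, 0.86 for *Tgfa* with *Erbb3* and 0.03 for *Erbb2* with *Errfi1*. Among all tested genes with a mean of at least 10 CPM, the patterns most like *Hbegf* were those of *Wdr1*, which codes for an actin-disassembly factor (r = 0.996), and *Dda1* (r = 0.994). For *Areg* they were *Gas2l1* and *Dynll1* (both r = 0.99), for *Tgfa* *Pdha1* (r = 0.98) and *Gm56862* (r = 0.98), and for *Erbb3* *Spg7* (r = 0.99) and *Ino80c* (r = 0.98). For *Egfr* they were *Pip5k1a* and *Sorcs2* (both r = 0.99), for *Errfi1* *Rttn* and *Cox17* (both r = 0.99), and for *Erbb2* *Skp1* (r = 0.97) and *Coa3* (r = 0.94).

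The other ligands and receptors of the ErbB system were mostly near the floor. *Nrg1*, which codes for neuregulin 1, a ligand of ERBB3, was counted 2 and 15 times *in vivo*, 63 and 103 times in 2D, 6 and 1 times at D3 and 5 times in each D7 library. Both 2D libraries were above the rest, as with *Hbegf* and *Areg*. *Nrg1* was higher in 2D than *in vivo* by 3.56 ± 0.75 on the log2 scale (adjusted p = 0.0010, edgeR) and D3 and D7 over 2D gave −4.75 ± 0.84 and −4.26 ± 0.80 (adjusted p = 0.00023 and 0.00035). It reached 1 CPM in only 4 libraries, both 2D libraries among them. With a filter at a mean of 10 CPM, neither *Nrg1* nor another of these genes was called in these comparisons. With only the 4 libraries compared, none was called in D7 over 2D. *Nrg2* had the reverse order, with 9 and 6 counts *in vivo*, 0 and 3 in 2D, 19 and 22 at D3 and 37 and 19 at D7. It was higher in organoids than in 2D at D3 (adjusted p = 0.019) and D7 (adjusted p = 0.0078), where 56 counts against 3 gave a ratio of 15.5 with an exact 95% interval of 5.04 to 77.4 that covers counting error only. Both calls were lost without 2D replicate 1, which had no count of *Nrg2* (adjusted p = 0.12 and 0.061). *Egf* had between 3 and 21 counts in every library and passed no test. *Nrg4* had at most 8 counts, *Erbb4* 1 and 2 counts *in vivo* and none in culture, and *Nrg3* none.

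Of 10 genes for the cutting and trafficking of the ligands, 9 were tested, and 6 (66.7%) were higher and 1 (11.1%) lower in 2D than *in vivo*, beside 19.9% and 21.7% of all genes. The median log2 fold change was 0.71, beside −0.06 over all genes. *Adam9* and *Adam15*, both surface proteases, went from group means of 4.11 and 3.04 CPM to 18.3 CPM each (log2 fold changes 2.15 ± 0.42 and 2.53 ± 0.45, adjusted p = 0.00056 and 0.00020, edgeR). *Rhbdf2*, which codes for a partner of the protease ADAM17, gave −1.91 ± 0.49 (adjusted p = 0.0044), a call lost without 2D replicate 1 (−1.41, adjusted p = 0.062). *Frmd8*, which codes for another part of the ADAM17 complex, was at 78.1 ± 9.13 CPM in 2D (SD, n = 2) and lower in organoids, with log2 fold changes over 2D of −1.40 ± 0.22 at D3 and −1.95 ± 0.22 at D7 (adjusted p = 5.9e-05 and 1.8e-06). In organoids 3 genes (33.3%) were higher and 2 (22.2%) lower than *in vivo* at each day, beside 14.1% and 14.0% of all genes at D3 and 18.0% and 16.8% at D7. Each total of 5 came to 3 without *in vivo* replicate 2, D3 replicate 1 (for D3) or D7 replicate 2 (for D7), or with a filter at a mean of 10 CPM. *Rhbdf1* rose to 29.3 CPM at D3 and 52.6 CPM at D7 from 7.45 CPM *in vivo* (adjusted p = 1.1e-05 and 1.7e-07). It was also higher than *in vivo* in 2D, at 30.2 CPM. *Adam15* was higher than *in vivo* in organoids as well. Its log2 fold changes were 2.26 ± 0.45 at D3 and 3.62 ± 0.44 at D7 (adjusted p = 0.00090 and 5.9e-06, edgeR). D7 over 2D gave 1.09 ± 0.37 for *Adam15* (adjusted p = 0.023). That call was lost without 2D replicate 1 or D7 replicate 2.

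The gene of this list not tested was *Adam12*, which codes for a protease known to cut HB-EGF, and it is named after its values were seen. It was counted 0 and 2 times *in vivo*, 517 and 510 times in 2D, and between 1 and 5 times in each organoid library. The filter, which asked for 3 libraries, removed it for being present in the 2D pair alone. The summed counts of 1027 in 2D and 2 *in vivo* gave a ratio of 605, with an exact 95% interval of 167 to 5006 that covers counting error only. No test of it is given.

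Of 14 genes induced by ERK, 7 were higher in 2D than *in vivo* (50%, beside 19.9% of all genes), 9 at D3 (64.3%, beside 14.1%) and 8 at D7 (57.1%, beside 18.0%). In each comparison 2 were lower (14.3%), beside 21.7%, 14.0% and 16.8% of all genes. *Ccnd1*, which codes for cyclin D1, was at 18.5 and 17.1 CPM *in vivo*, 650 and 542 CPM in 2D, 256 and 185 CPM at D3 and 128 and 111 CPM at D7. Every cultured library was above the *in vivo* pair, by a log2 fold change of 5.07 ± 0.21 in 2D, 3.63 ± 0.20 at D3 and 2.76 ± 0.20 at D7 (adjusted p = 7.9e-12, 4.8e-10 and 1.3e-08, edgeR). *Dusp5*, which codes for a phosphatase of nuclear ERK, was at 28 ± 6.46 CPM *in vivo*, 78.6 ± 19.8 CPM in 2D, 4.44 ± 2.32 CPM at D3 and 2.12 ± 1.04 CPM at D7 (SD, n = 2). Like *Errfi1*, it was higher in 2D than *in vivo* and lower in organoids, by −2.68 ± 0.35 at D3 and −3.63 ± 0.39 at D7 on the log2 scale (adjusted p = 1.5e-05 and 1.5e-06).

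*Spry2* and *Etv5*, which FGF receptor signalling induces in many tissues, had their highest means in organoids. *Spry2*, which codes for an inhibitor of receptor signalling, was at 55.1 ± 8.49 CPM *in vivo*, 36.3 ± 9.09 CPM in 2D, 185 ± 0.303 CPM at D3 and 119 ± 20.2 CPM at D7. *Etv5*, which codes for a transcription factor, was at 21.7 ± 4.38, 12.9 ± 0.707, 90.6 ± 5.95 and 107 ± 14.6 CPM in the same order. At D3 both were above 2D, by 2.35 ± 0.20 and 2.81 ± 0.22 on the log2 scale (adjusted p = 8.3e-08 and 1.8e-08, edgeR). In 2D both were lower than *in vivo*, with −0.60 ± 0.20 and −0.76 ± 0.22 (adjusted p = 0.025 and 0.011). These calls were lost for *Spry2* without *in vivo* replicate 1, 2D replicate 2 or D3 replicate 2, and for *Etv5* without *in vivo* replicate 2 or 2D replicate 1. Between the organoid days 7 of the 14 genes were lower and none higher at D7, among them *Dusp6*, which codes for a phosphatase of ERK (430 ± 73.9 CPM at D3, 129 ± 80.8 CPM at D7, adjusted p = 0.00059). Of all genes 9.91% were lower, and the count of 7 came to 4 without D3 replicate 1 or D7 replicate 2. The median log2 fold change of the 14 over *in vivo* was 0.70 in 2D, 2.05 at D3 and 1.05 at D7, beside −0.06, −0.01 and 0.01 over all genes.

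The early response genes, which growth factors and tissue dissociation both induce within minutes, were mostly lower in culture. Of 11 tested, 7 were lower than *in vivo* in 2D (63.6%, beside 21.7% of all genes), 9 at D3 (81.8%, beside 14.0%) and 10 at D7 (90.9%, beside 16.8%). *Fos* was at 385 and 366 CPM *in vivo*, 11.1 and 19.5 CPM in 2D, 6.42 and 3.91 CPM at D3 and 2.73 and 4.35 CPM at D7. The *in vivo* libraries were the ones made from freshly digested and sorted cells, and the part of that handling was not tested. *Ier3* was the only one of these genes higher in 2D than *in vivo*, by 2.30 ± 0.21 (log2 fold change, adjusted p = 8.6e-08, edgeR), with 52.0 ± 17.9 CPM *in vivo*, 258 ± 5.61 CPM in 2D, 17.7 ± 0.747 CPM at D3 and 20.9 ± 1.86 CPM at D7. *Junb* was at 403 ± 56.6 CPM *in vivo*, 133 ± 9.24 CPM in 2D and 12 ± 1.39 CPM at D3.

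Of 14 RAS and ERK cascade genes, 7 (50%) were higher and 1 (7.14%) lower in 2D than *in vivo*, beside 19.9% and 21.7% of all genes. At D3 2 (14.3%) were higher, close to the 14.1% of all genes, and 4 (28.6%) lower, beside 14.0%. At D7 3 (21.4%) were higher and 6 (42.9%) lower, beside 18.0% and 16.8%. The median log2 fold change was 0.39 in 2D, −0.24 at D3 and −0.29 at D7. *Map2k1*, which codes for the ERK kinase MEK1, was at 88.1 CPM *in vivo* and 86.7 CPM in 2D and lower in organoids, with −1.87 ± 0.25 at D3 and −2.49 ± 0.26 at D7 over *in vivo* (adjusted p = 2.0e-05 and 1.2e-06, edgeR). Of 12 receptor adaptor genes, 4 (33.3%) were higher and 1 (8.33%) lower in 2D, beside the same 19.9% and 21.7%, a total of 5 that came to 3 without either 2D library or with library size alone. *Ptpn11*, which codes for the phosphatase SHP2, gave 0.99 ± 0.20 in 2D (adjusted p = 0.00080). At D3 2 adaptor genes (16.7%) were higher and 4 (33.3%) lower, beside 14.1% and 14.0%, a total of 6 that came to 1 with only the 4 libraries compared, 3 without *in vivo* replicate 2 and 2 without D3 replicate 1. At D7 2 were higher and 2 lower (16.7% each), close to the 18.0% and 16.8% of all genes, and the total of 4 came to 2 without D7 replicate 2. *Gab1*, a docking protein gene, was lower at D7 than *in vivo*, with −1.73 ± 0.22 (adjusted p = 8.6e-06).

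Of 12 PI3K and AKT genes, 4 (33.3%) were higher and 3 (25%) lower in 2D than *in vivo*, beside 19.9% and 21.7% of all genes. At D3 3 were higher and 3 lower (25% each, beside 14.1% and 14.0%) and at D7 2 were higher and 3 lower (16.7% and 25%, beside 18.0% and 16.8%). The D3 total came to 3 without *in vivo* replicate 1 and the D7 total to 3 without *in vivo* replicate 2. *Pik3cb*, a catalytic subunit gene, rose from 4.99 to 33.8 CPM in 2D (adjusted p = 5.9e-05), and *Pik3r1*, the gene of a regulatory subunit, was at 115 CPM *in vivo*, 59.4 CPM in 2D, 319 CPM at D3 and 358 CPM at D7. Both directions of *Pik3r1* passed the test (log2 fold change −0.96 ± 0.15 in 2D, 1.47 ± 0.15 at D3 and 1.64 ± 0.15 at D7, adjusted p = 6.5e-05, 6.2e-07 and 2.0e-07, edgeR). Of 15 genes that inhibit ErbB receptors or send them to degradation, 4 (26.7%) were higher and 3 (20%) lower in 2D, beside 19.9% and 21.7% of all genes. At D3 3 were higher and 1 lower (20% and 6.67%, beside 14.1% and 14.0%) and at D7 4 and 2 (26.7% and 13.3%, beside 18.0% and 16.8%), shares that are near those of all genes. *Lrig3* was higher in all 3 cultures, by 2.06, 1.85 and 2.14 on the log2 scale, and *Cblb*, which codes for a ubiquitin ligase, was lower at D3 and D7, with −1.86 ± 0.28 and −2.47 ± 0.29 (adjusted p = 6.2e-05 and 4.4e-06). *Sh3kbp1*, which codes for an adaptor in receptor uptake, was at 35.9 CPM *in vivo* and 147 CPM in 2D (adjusted p = 1.4e-05).

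**Figure D5:**
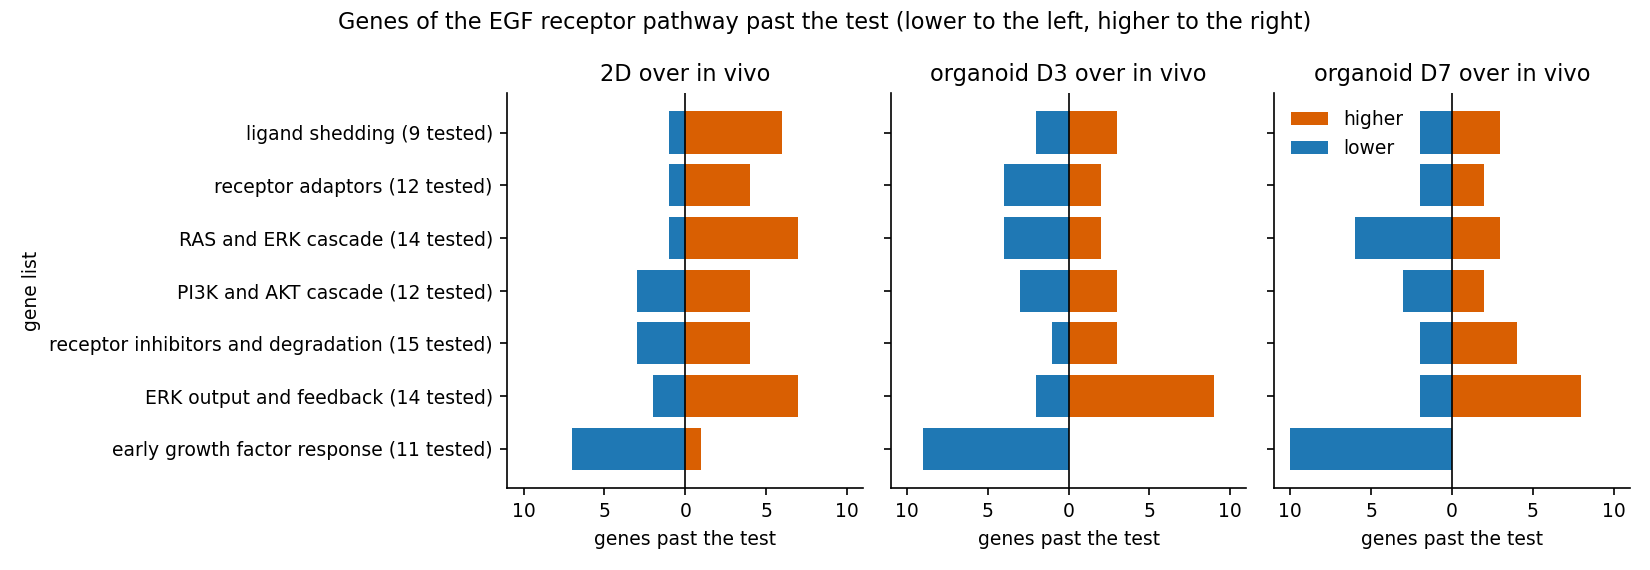
Number of genes (horizontal axis) past an adjusted p of 0.05 in each list of EGF receptor pathway genes (vertical axis, with the number tested), in 2D TECs and D3 and D7 organoids over in vivo TECs. Bars to the right count genes that were higher and bars to the left genes that were lower. Early response genes lie almost wholly to the left in all 3 panels, and ERK output genes mostly to the right.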

How the data were processed

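Per the labels and the study's methods, RNA of 8 samples was made into QuantSeq 3′ libraries, sequenced on an Illumina NextSeq and aligned by the authors with STAR to the build GRCm39. The deposited values are raw counts per Ensembl gene, 1 file a library, not normalized, and their processing notes name R 4.1.2, edgeR and limma. The annotation release, the use of strand and the treatment of multiply mapped reads are not given in the sources used here. In GENCODE M39, 56236 of 56923 gene IDs were matched to symbols and 687 were not.

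Tools were edgeR 4.0.16, DESeq2 1.42.0 and limma 3.58.1 under R 4.3.3, with tables and plots made in Python 3.11.15 (matplotlib 3.10.9, pandas 2.3.3). Genes with at least 1 CPM by library size in at least 3 of 8 libraries were kept (14504), and TMM factors lay between 0.880 and 1.09. All 4 groups entered 1 edgeR quasi-likelihood model without a replicate block, with Benjamini-Hochberg adjustment over all genes tested and a threshold of 0.05. With 2 libraries a group, an exact permutation test of a single gene cannot pass this threshold. The procedure was tested on simulated counts, in which no gene of few counts was given a change. How well it finds changes in such genes was not tested. Fold changes against groups with no count were bounded by a floor of 3 counts per library. Replicate libraries differed by more than counting noise, so none was merged.

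The members and gene lists were chosen with earlier results of these data known, so no count over them is independent evidence. All members and the 6 other ErbB genes are named. Of each further list, a comparison could name up to 2 genes per direction, taken by size of fold change from those past the threshold whose higher group had 10 CPM or more in each library. Upstream stretches were read from GRCm39 before the start of the canonical transcript. No stretch of *Hbegf* is printed and no protein sequence was used. Alternatives were DESeq2's size factors, library size alone, limma-voom, DESeq2's Wald test, no filter, a filter at a mean of 10 CPM, a replicate block, only the 4 libraries compared, no ribosomal RNA genes, and each library left out in turn.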

Additional observations from a re-analysis of the deposited data

How the results depend on the processing

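Of the 847 fold changes of tested members under an alternative, 770 kept their direction and side of the threshold, 51 lost the call, 26 gained it and 0 reversed in sign while called. Of the 32 called fold changes, 17 kept the call under every alternative in which they could be fitted (*Areg* and *Ereg* fell below the filter in up to 5), and of 136 comparisons of named pathway genes 96 did. The members past the test in 2D over *in vivo* (9) came to 4 with a filter at a mean of 10 CPM, which takes *Areg*, *Ereg*, *Tgfa* and *Btc* out of the test, and to between 5 and 9 with a library left out. In D3 over 2D and D7 over 2D (7 each) that filter gave 4 and 4, and leaving out a library gave 3 to 9 and 5 to 7. For D3 over *in vivo* (4) leaving out a library gave 1 to 4. For D7 over *in vivo* (4) it gave 2 to 4, and the fit of only the 4 libraries compared gave 2. For D7 over D3 (1) the count was 2 with limma-voom, 3 without a filter, 3 with only the 4 libraries compared and 0 to 3 with a library left out. The cause of these changes was not tested.

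With the replicate number as a replicate block, D7 over D3 gave 2 members, with *Erbb2* gained (adjusted p = 0.033), *Egfr* passed at D7 over *in vivo* (−0.41, adjusted p = 0.0499) and *Erbb2* at D3 over 2D (adjusted p = 0.044). The labels share numbers but name no shared animal or day. Deviations of same-numbered libraries correlated at between 0.0376 and 0.149. With the block more of all genes passed in each comparison, as in D7 over D3, with 3587 against 3012. Since no label names a pair, the numbers were not taken as pairs. Whether same-numbered libraries share an effect was not tested. Of 40 group means in CPM, 7 moved by more than 1 SD with library size alone, the largest *Hbegf* in 2D, from 220 to 197 CPM. Genes with a few counts are limited by depth, here *Epgn* in all groups, *Areg* and *Ereg* outside 2D, and *Btc* *in vivo* and at D3. With 2 libraries a group a single library can decide a call.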
